A study of Homo sapiens with 6 samples.

Results

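Chromatin accessibility was examined at 10 receptor tyrosine kinase genes, EGFR, ERBB2, ERBB3, MET, AXL, FGFR1, IGF1R, EPHA2, KIT and RET, of 20176 protein-coding genes of GENCODE release 44 placed on hg19. The genes were chosen by name, and the rule uses no accessibility value, although earlier results of these data were known when they were chosen. MDA-MB-231, a human triple-negative breast cancer line of mesenchymal type, was profiled by ATAC-seq, in which a transposase cuts and tags open chromatin. Parental cells were compared with SAP30-KO1 cells of the same line, which lacked SAP30, a component of the histone deacetylase complex SIN3, after CRISPR/Cas9 editing, with 3 libraries in each group (Parental and SAP30-KO1, replicates 1 to 3). No drug or other treatment is given in the labels for either group. The knockout population was a mixture of amplified single-cell clones, so that SAP30-KO1 is 1 mixed line. The labels do not say whether the libraries of a group came from separate cultures, and the p-values below measure the spread between these libraries only.

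Receptor tyrosine kinases are single-pass membrane proteins that bind a growth factor or membrane-bound ligand outside the cell, form dimers and phosphorylate one another on tyrosines, to which adaptors such as GRB2 and SHC1 then bind. EGFR, ERBB2 and ERBB3 form heterodimers with one another. ERBB2 has no known ligand of its own, and ERBB3 has little kinase activity. In breast cancer, triple-negative lines of basal or mesenchymal type are known for EGFR and AXL expression, and lack ERBB2 amplification by definition.

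The deposited values were peak summits with a score, a −log10 q-value that the peak caller assigned within each library. The libraries held 29762 to 40650 summits. Each score was turned into a rank, its percentile among all scores of its library (100 for the strongest), and a gene or site without a peak in a library was given a rank of 0. A promoter summit lay within 1 kb of any annotated start site of the gene, and the rank of a promoter is that of its strongest summit. Summits of the 6 libraries whose windows of 250 bp on each side overlapped were joined to a locus, which gave 56419 loci in the genome. The region of a gene ran from 50 kb upstream to its end, and 69 loci lay in the 10 regions. The files give no read counts, so that the sequencing depth is unknown and a rank of 0 means only that no peak was called. Values for a group are given in the order of replicates 1 to 3 throughout.

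The sequences of the loci on which the account rests are shown first, from the hg19 reference, plus strand, which is the coding (sense) strand of EGFR, MET and IGF1R. Each window holds 299 bases centred on the median summit of a locus, and the promoter windows stop at the base before the first annotated start site. The strongest intronic loci of EGFR (intron 1, chr7:55141729-55142027) and MET (intron 2, chr7:116356812-116357110) were open in all 6 libraries. A pair of loci further into EGFR intron 1 (chr7:55200436-55200734 and chr7:55201498-55201796) ranked lower in every SAP30-KO1 library than in any Parental library. A locus in EGFR intron 8 (chr7:55224020-55224318) and one in IGF1R intron 2 (chr15:99356008-99356306) had a peak in the 3 Parental libraries and in no SAP30-KO1 library. The EGFR locus is named by the place of its summit, and the last part of its printed window runs into the next exon. The promoters of EGFR (chr7:55086524-55086709) and MET (chr7:116312010-116312249) were the member promoters with a peak at the canonical start in all 6 libraries. Capitals mark an AP-1 motif (TGANTCA, where N is any base) in the first 4 sequences, an ETS motif (CCGGAA) in EGFR intron 8, a CCAAT box in IGF1R intron 2 and GC boxes (GGGCGG) in the promoters, each on either strand; a match is a description of the letters only.
EGFR intron 1, strongest locus: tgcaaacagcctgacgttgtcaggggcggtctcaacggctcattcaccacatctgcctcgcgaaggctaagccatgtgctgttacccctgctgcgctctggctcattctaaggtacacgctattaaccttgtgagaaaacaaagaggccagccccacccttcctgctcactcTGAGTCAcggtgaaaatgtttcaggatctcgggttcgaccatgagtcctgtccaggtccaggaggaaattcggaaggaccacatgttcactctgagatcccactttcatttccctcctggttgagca
MET intron 2, strongest locus: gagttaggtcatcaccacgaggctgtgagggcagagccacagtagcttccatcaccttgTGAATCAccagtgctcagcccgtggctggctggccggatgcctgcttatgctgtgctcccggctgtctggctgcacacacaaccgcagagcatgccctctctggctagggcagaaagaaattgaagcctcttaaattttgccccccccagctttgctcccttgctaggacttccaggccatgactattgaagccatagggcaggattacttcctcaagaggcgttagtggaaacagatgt
EGFR intron 1, first of the lower pair: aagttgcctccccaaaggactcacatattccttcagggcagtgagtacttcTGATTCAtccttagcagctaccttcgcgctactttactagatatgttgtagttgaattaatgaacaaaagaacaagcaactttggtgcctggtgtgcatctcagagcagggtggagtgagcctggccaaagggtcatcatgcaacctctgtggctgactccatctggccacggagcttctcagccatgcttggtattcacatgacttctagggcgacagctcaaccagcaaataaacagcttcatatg
EGFR intron 1, second of the lower pair: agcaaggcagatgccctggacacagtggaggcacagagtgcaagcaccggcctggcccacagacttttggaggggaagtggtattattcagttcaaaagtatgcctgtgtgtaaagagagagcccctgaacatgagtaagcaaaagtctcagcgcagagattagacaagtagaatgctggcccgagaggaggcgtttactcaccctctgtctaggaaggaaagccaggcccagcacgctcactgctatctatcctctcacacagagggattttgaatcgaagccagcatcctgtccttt
EGFR intron 8, Parental only: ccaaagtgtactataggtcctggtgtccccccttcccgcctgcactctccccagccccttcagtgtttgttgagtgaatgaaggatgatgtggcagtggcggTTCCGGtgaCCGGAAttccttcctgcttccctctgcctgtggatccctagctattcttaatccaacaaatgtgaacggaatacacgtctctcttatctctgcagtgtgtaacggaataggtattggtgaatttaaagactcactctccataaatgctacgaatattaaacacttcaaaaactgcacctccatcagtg
IGF1R intron 2, Parental only: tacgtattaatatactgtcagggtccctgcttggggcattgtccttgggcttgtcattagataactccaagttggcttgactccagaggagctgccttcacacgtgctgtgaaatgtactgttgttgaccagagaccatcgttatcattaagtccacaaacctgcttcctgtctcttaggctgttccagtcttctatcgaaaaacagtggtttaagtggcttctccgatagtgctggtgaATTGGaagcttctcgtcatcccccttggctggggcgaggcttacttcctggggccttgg
EGFR promoter: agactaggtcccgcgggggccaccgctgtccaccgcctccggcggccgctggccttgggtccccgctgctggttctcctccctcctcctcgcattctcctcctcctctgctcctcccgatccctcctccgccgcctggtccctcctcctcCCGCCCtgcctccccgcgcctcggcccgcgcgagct
MET promoter: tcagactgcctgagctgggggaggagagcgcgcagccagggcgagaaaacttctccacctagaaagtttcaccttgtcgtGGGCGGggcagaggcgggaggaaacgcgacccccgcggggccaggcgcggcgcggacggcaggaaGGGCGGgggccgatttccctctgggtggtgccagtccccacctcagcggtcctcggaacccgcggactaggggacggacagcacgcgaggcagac
The second locus of the lower pair held no AP-1 match in its window and is printed in lower case throughout.

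The 10 regions held similar numbers of summits in both groups. Parental libraries had 44, 49 and 42 summits there, against 36, 46 and 43 in SAP30-KO1, so that the groups overlapped (45.0 ± 3.61 against 41.7 ± 5.13, SD, n = 3 per group, exact permutation test, two-sided, p = 0.5). As a share of all summits of a library this was 0.135% ± 0.0222 in Parental and 0.120% ± 0.00624 in SAP30-KO1 (n = 3 per group, exact permutation test, two-sided, p = 0.5). With 3 libraries against 3 there are 20 assignments and the smallest p-value this test can give is 0.1, so that no single comparison could pass 0.05.

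Intronic summits of the 10 genes numbered 23, 22 and 21 in Parental and 21, 25 and 24 in SAP30-KO1 (exact permutation test, n = 3 per group, two-sided, p = 0.5). Promoter summits numbered 11, 12 and 8 against 7, 8 and 10 (exact permutation test, n = 3 per group, two-sided, p = 0.3), and upstream summits 8, 13 and 11 against 7, 12 and 8. Exonic summits numbered 2 in each Parental library and 1 in each SAP30-KO1 library (exact permutation test, n = 3 per group, two-sided, p = 0.1), the difference being the EGFR intron 8 locus printed above. EGFR, the receptor for EGF and TGFA, was the member whose intronic counts did not overlap, with 7, 6 and 6 summits in Parental and 8 in each SAP30-KO1 library. Such separation towards SAP30-KO1 was seen in 2.32% of 6985 protein-coding genes with an intronic summit in any library, and separation the other way in 1.59%. This base includes genes with few intronic summits, such as AXL, and genes with as many as EGFR were not taken separately. A locus can hold more than 1 summit. Counted by loci instead, SAP30-KO1 replicate 1 had a peak at as many EGFR intronic loci as Parental replicate 1, so that the groups overlapped. Among the EGFR intronic loci, 3 had a peak in a single SAP30-KO1 library each and in no Parental library, at ranks of 2.57, 20.9 and 7.26, and a locus 33090 bp from the start ranked at 30.2, 0 and 0 in Parental and 0, 36.3 and 50.5 in SAP30-KO1.

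Summits were unevenly spread over the family. EGFR, IGF1R and MET, the receptors for EGF, insulin-like growth factors and HGF, together held 43 of the 69 loci and 28 of the 35 intronic loci. EGFR held 15 loci, more than 98.8% of protein-coding genes, and IGF1R held 19. These are long genes, and per 100 kb of region EGFR held 6.18 loci and IGF1R 5.19, against a median of 2.71 over all protein-coding genes. EPHA2, a receptor for ephrin-A ligands, was the densest member, with 7 loci and 8.56 per 100 kb, 4 of them upstream of the gene. KIT, the stem cell factor receptor, held 1 locus in a region of 133516 bp (0.749 per 100 kb).

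Every member had a promoter peak in at least 1 library, whereas 37.7% of protein-coding genes had none. All annotated start sites were searched for this, from 4 in MET and EPHA2 to 47 in FGFR1. At the canonical start alone, 3 of 10 members had no peak in any library. Among protein-coding genes in the GC range of the members, given below, the share without a peak there was 31.7% (60 to 70% GC) and 25.9% (70 to 80%). A promoter peak in all 6 libraries was found for 3 of 10 members, near the share of 34.5% over protein-coding genes. MET, IGF1R and EGFR led the order of mean promoter rank over the 6 libraries, at 77.7, 77.1 and 70.1. MET promoter ranks were 92.1, 62.4 and 90.0 in Parental and 64.1, 85.1 and 72.6 in SAP30-KO1, which overlapped (81.5 ± 16.6 against 73.9 ± 10.6, SD, n = 3 per group). EGFR promoter ranks were 68.1, 82.0 and 47.1 in Parental and 70.7, 57.4 and 95.3 in SAP30-KO1, where the single highest value was the SAP30-KO1 library of replicate 3 and the lowest a Parental library (65.8 ± 17.6 against 74.4 ± 19.2, SD, n = 3 per group). IGF1R ranks were 94.2, 72.0 and 79.9 in Parental and 64.2, 78.0 and 74.4 in SAP30-KO1, again overlapping (82.0 ± 11.3 against 72.2 ± 7.16, SD, n = 3 per group). In Parental replicate 2 and SAP30-KO1 replicate 3 the strongest IGF1R summit lay near other internal start sites than in the remaining libraries. The IGF1R means therefore describe no single promoter.

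**Figure D1:**
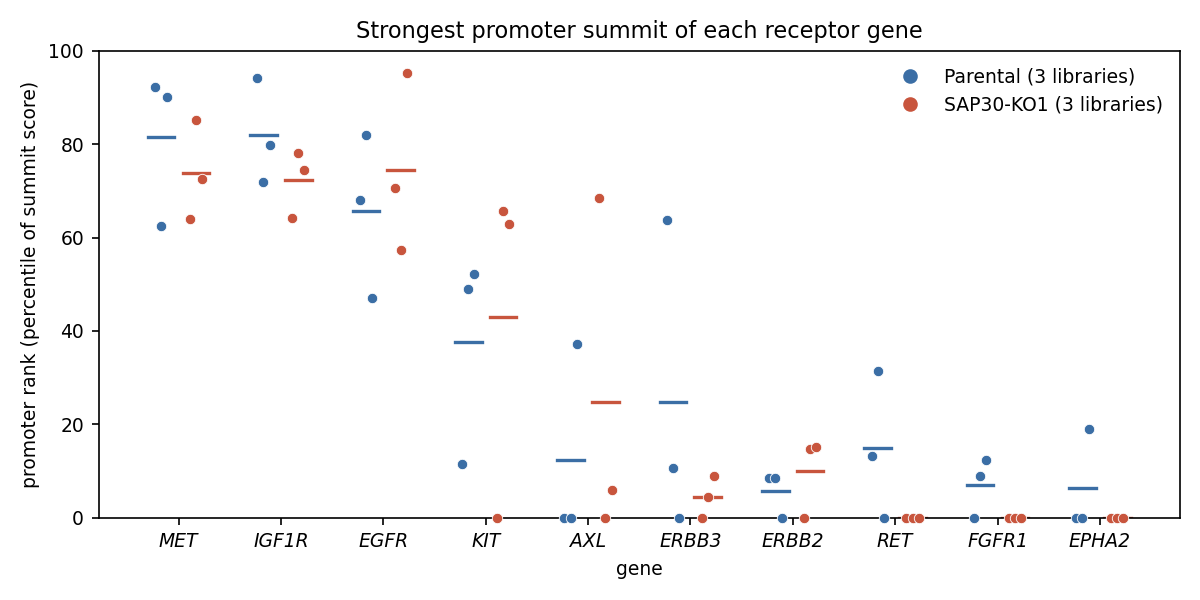
Promoter rank (percentile of the strongest summit within 1 kb of any start site, 0 where no peak was called) of the 10 receptor genes in each library, with 1 point per library and a bar at the mean of each group. MET, IGF1R and EGFR lie at 47.1 or higher in every library, and the points of the groups overlap for each gene.

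KIT stood between these and the weak promoters. Its ranks were 11.5, 49.1 and 52.2 in Parental and 0, 65.8 and 63.0 in SAP30-KO1, so that the SAP30-KO1 libraries held both the lowest and the highest values. The KIT summit lay in intron 1, 803 bp past the canonical start and 12 bp from another annotated start. AXL, the receptor for GAS6 and a marker of mesenchymal breast cancer lines, had a promoter peak in 3 libraries, at ranks of 0, 0 and 37.2 in Parental and 68.4, 0 and 5.98 in SAP30-KO1. These came from different sites, since the Parental peak lay at the canonical start and the SAP30-KO1 peaks at an internal start 6827 bp downstream.

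The ERBB partners of EGFR were weak in this line. ERBB3 promoter ranks were 63.7, 10.8 and 0 in Parental and 0, 4.41 and 8.97 in SAP30-KO1. ERBB2 promoter ranks were 8.43, 8.54 and 0 against 0, 14.7 and 15.2. Their summit lay 87 bp from another annotated ERBB2 start and 149 bp from the start of the neighbouring gene PGAP3. It was 11858 bp upstream of the canonical ERBB2 start. The canonical ERBB2 start had a peak in 1 library, at a rank of 0.996. Ranges of both genes overlapped between the groups.

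RET, the receptor for GDNF family ligands, had promoter ranks of 13.2, 31.4 and 0 in Parental and no promoter peak in SAP30-KO1. FGFR1, a receptor for fibroblast growth factors, had ranks of 0, 8.98 and 12.4 in Parental and none in SAP30-KO1. EPHA2 had a promoter peak in Parental replicate 3 alone, at 18.9. In each of the 3 genes at least 1 Parental library was also at 0, so that the groups were not separated. Each of these promoter peaks counted through an internal start site rather than the canonical one. The strongest summit lay 48 bp from that site in EPHA2, 707 bp in RET and 897 bp in FGFR1.

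No member promoter had group ranges that lay apart, against 4.57% of 12572 protein-coding genes with a promoter peak that were lower and 6.01% that were higher in SAP30-KO1. The adjusted p-value was 1 for each of the 10 members (exact permutation test, Benjamini-Hochberg over all 12572 genes). Mean promoter rank was lower in SAP30-KO1 for 6 members and higher for 4, and the median difference was −6.71 percentile points over the members and 0.673 over all genes with a promoter peak. The value over the members was −3.02 without Parental replicate 1, −3.38 without Parental replicate 3, −2.77 with equal numbers of top-ranked summits and −3.91 with a 2500 bp promoter window. The median promoter rank of the members had an SD of 7.17 points between libraries of a group, pooled over the groups. The median difference was not tested. The sign of the AXL and ERBB2 differences changed where only the canonical start was used, and that of KIT on a log2 scale. No neighbouring genes in the order of mean rank, from MET to EPHA2, had ranges that lay apart over the 6 libraries. MET exceeded IGF1R in 2 of 6 libraries, and EGFR exceeded KIT in 4 of 6. The number of start sites, and with it the promoter area searched, ranged from 4 (MET, EPHA2) to 47 (FGFR1).

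At the canonical start site itself, EGFR and MET had a peak in all 6 libraries, KIT in 5 and ERBB3 in 4. AXL, ERBB2 and IGF1R had it in 1 library each, and EPHA2, FGFR1 and RET in none. For IGF1R the contrast with its promoter rank was largest, because its strong promoter summits lay near internal start sites. These summits were 225677, 241725 and 248729 bp downstream of the canonical start. The first of these internal sites ranked at 85.6, 72.0 and 63.9 in Parental and 36.0, 74.9 and 0 in SAP30-KO1 (difference −36.9, exact permutation test, n = 3 per group, two-sided, p = 0.3). The third, the only IGF1R promoter locus with a peak in all 6 libraries, ranked at 94.2, 30.1 and 79.9 against 64.2, 78.0 and 43.6. A further IGF1R promoter locus lay 1319 bp upstream of the canonical start and 151 bp from the start of IRAIN, an antisense noncoding RNA, with a peak in 2 libraries; it counts as a promoter locus through the summit of 1 library that lay within 1 kb of the canonical start.

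The 301 bases around the canonical starts were GC-rich in all members, from 67.4% in ERBB2 and ERBB3 to 79.4% in RET. RET, FGFR1 (77.7%), EGFR (78.4%) and MET (77.1%) were alike in GC content, yet EGFR and MET had a start peak in all 6 libraries and RET and FGFR1 in none. Over all protein-coding genes with a canonical start, a peak in all 6 libraries was found for 41.5% of those with 60 to 70% GC, for 37.6% of those with 70 to 80% and for 0.656% of those below 40%. The relation of GC content to peak calling within the members was not tested.

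**Figure D2:**
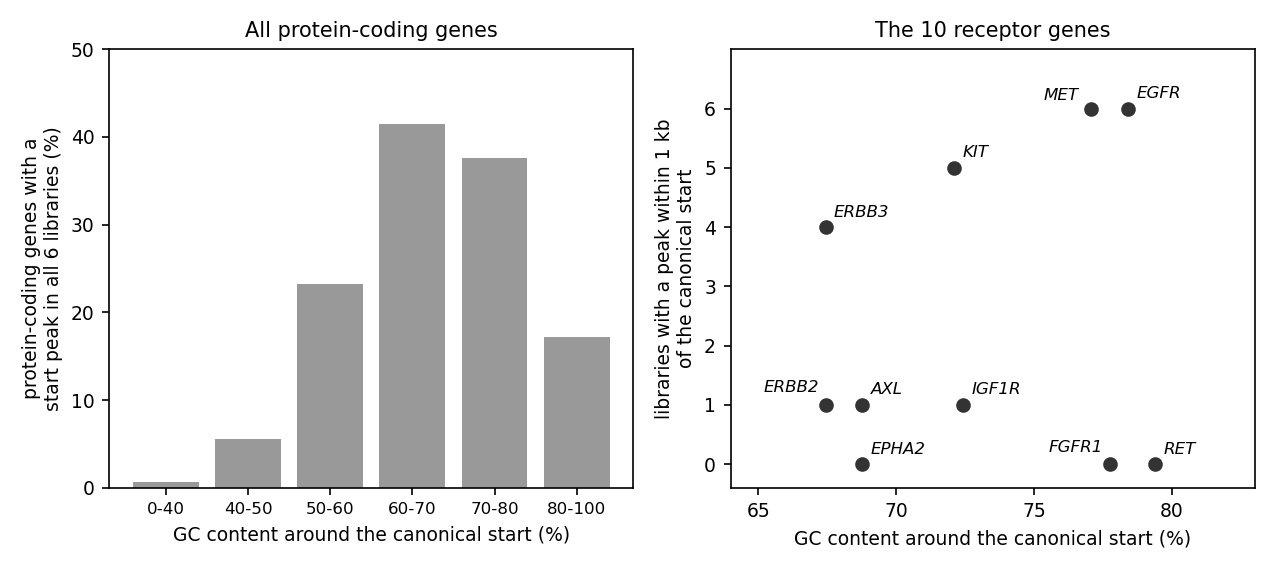
Left, percentage of protein-coding genes with a peak within 1 kb of the canonical start in all 6 libraries, by GC content of the 301 bases around that start. Right, number of libraries with such a peak against GC content for each of the 10 receptor genes; EGFR and MET have 6, and EPHA2, FGFR1 and RET have 0.

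The strongest accessible sites of the family lay in introns rather than at promoters. A mean rank over 90 was reached by 5 loci, 3 in EGFR and 1 each in MET and IGF1R, and all 5 were intronic. Of all intronic loci in the genome 3.03% had a mean rank over 90. EGFR (ENSG00000146648.21_13, chr7:55086710-55279321, plus strand) had 10 intronic loci, and 6 of them were open in every library. The strongest, in intron 1, 54966 bp from the canonical start, ranked at 99.0, 93.2 and 98.4 in Parental and 98.9, 98.9 and 95.9 in SAP30-KO1, a difference of 1.08 within the spread (exact permutation test, n = 3 per group, two-sided, p = 0.7). A locus in intron 20, 2759 bp from the start of the antisense gene EGFR-AS1, ranked at 99.2, 94.9 and 97.9 against 96.9, 98.7 and 93.1.

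Both loci of the lower pair in EGFR intron 1, 113922 and 114902 bp from the start, had separated group ranges, and neither passed a test over all loci (adjusted p = 0.988 for both by the exact permutation test, 0.621 and 0.891 by limma). The first ranked at 86.9, 91.4 and 93.2 in Parental and 83.5, 79.4 and 84.3 in SAP30-KO1, with every SAP30-KO1 library below every Parental library. The difference was −8.10 points (exact permutation test, n = 3 per group, two-sided, p = 0.1). The second ranked at 97.1, 98.3 and 97.4 in Parental and 92.7, 96.4 and 96.0 in SAP30-KO1, also without overlap, with a difference of −2.54 (exact permutation test, n = 3 per group, two-sided, p = 0.1). Both loci ranked at 79.4 or higher in every library. On a log2 scale of the score the ranges of the second locus overlapped, and its rank difference was −1.40 without SAP30-KO1 replicate 1.

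The locus in EGFR intron 8, 137459 bp from the start, ranked at 77.6, 4.54 and 60.4 in Parental and had no peak in SAP30-KO1. The canonical transcript has an intron there, whereas another annotated EGFR transcript retains it as exon, and the locus was counted as exonic. Parental replicate 2 was far below the other two. The difference was −47.5 points (exact permutation test, n = 3 per group, two-sided, p = 0.1) and −32.5 without Parental replicate 1. At a q of 0.0001 or less the groups were no longer separated (difference −38.6, exact permutation test, n = 3 per group, p = 0.4). A peak in the 3 Parental libraries and in no SAP30-KO1 library was found at 0.876% of all loci, and the reverse at 1.43%.

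At the EGFR loci upstream of the gene the groups were not separated. A locus 33287 bp upstream ranked at 97.0, 84.9 and 76.9 in Parental and 94.3, 81.4 and 75.9 in SAP30-KO1 (difference −2.38). A locus 22837 bp upstream ranked at 80.1, 49.4 and 52.2 against 65.9, 61.0 and 76.3 (difference 7.21). The loci of the gene were not tested against each other. EGFR lies on the short arm of chromosome 7, whose 432 loci found in every library had a median difference of 3.42 points towards SAP30-KO1. The lower pair kept its separation when ranks were taken within the chromosome arm.

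**Figure D3:**
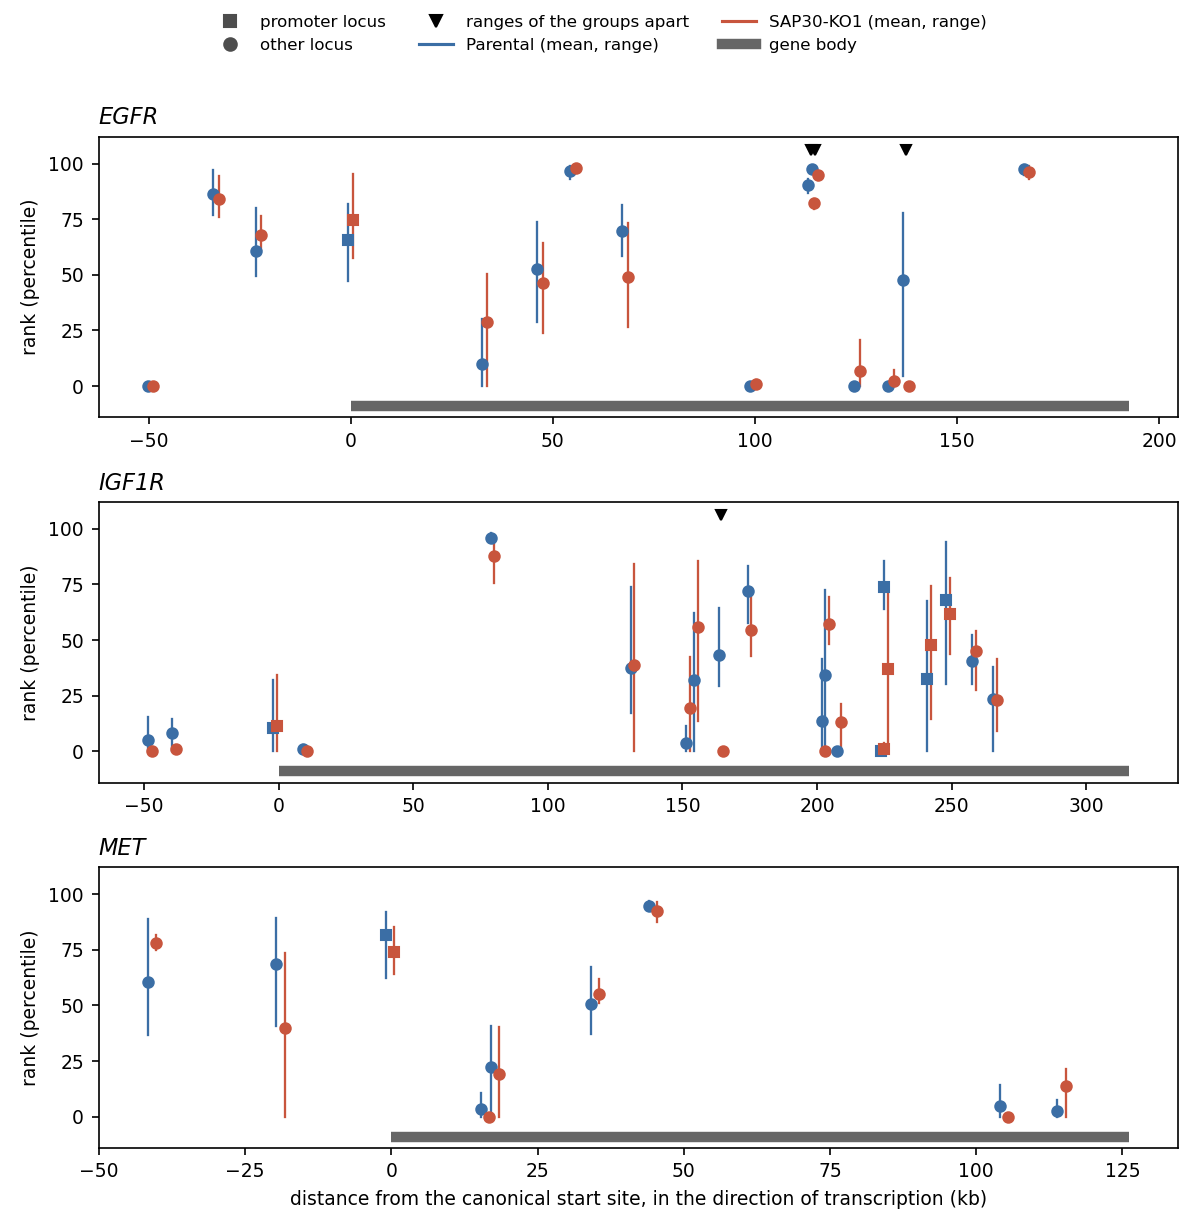
Rank (percentile) of each locus of the EGFR, IGF1R and MET regions against the distance from the canonical start site in kb, with the mean (squares for promoter loci, circles for others) and the range over 3 libraries for Parental and SAP30-KO1. The 4 loci marked with triangles, 3 in EGFR and 1 in IGF1R, have group ranges that lie apart, and all 4 are lower in SAP30-KO1.

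IGF1R (ENSG00000140443.15_14, chr15:99191768-99507759, plus strand) had 12 intronic loci, 3 of them with a peak in all 6 libraries. Its strongest, in intron 2, ranked at 98.2, 95.0 and 94.7 in Parental and 75.8, 92.3 and 95.5 in SAP30-KO1, where the low value was SAP30-KO1 replicate 1 and the groups overlapped (difference −8.09, exact permutation test, n = 3 per group, two-sided, p = 0.3; −2.04 without that library). The locus 164314 bp from the start, also in intron 2, ranked at 64.5, 29.4 and 36.1 in Parental and had no peak in SAP30-KO1. This was a difference of −43.3 points (exact permutation test, n = 3 per group, two-sided, p = 0.1), and of −25.9 at a q of 0.0001 or less. Another intron 2 locus, 174888 bp from the start, ranked at 83.1, 57.6 and 75.5 against 43.1, 49.3 and 71.3, and its groups overlapped. IGF1R lies on the long arm of chromosome 15, where the median difference was 0.0814.

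MET (ENSG00000105976.16_13, chr7:116312250-116438431, plus strand), the HGF receptor, had 6 intronic loci and none with separated groups. Its strongest, in intron 2, 44745 bp from the canonical start, ranked at 94.4, 92.9 and 97.1 in Parental and 93.1, 96.3 and 87.7 in SAP30-KO1 (difference −2.47, exact permutation test, n = 3 per group, two-sided, p = 0.5; −0.141 without SAP30-KO1 replicate 3). A second intron 2 locus in all 6 libraries ranked at 67.2, 37.3 and 46.9 against 52.7, 61.7 and 51.2. Upstream of MET, a locus at 40956 bp ranked at 88.8, 36.6 and 56.4 in Parental and 81.6, 78.0 and 75.1 in SAP30-KO1. The locus 18961 bp upstream had no peak in SAP30-KO1 replicate 1 and ranks of 40.7 to 89.0 in the other 5 libraries.

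EPHA2 (chr1:16450832-16482564, minus strand) had its strongest loci upstream. The locus 25833 bp upstream ranked at 78.3, 66.9 and 60.2 in Parental and 0, 51.0 and 66.5 in SAP30-KO1 (difference −29.3, exact permutation test, n = 3 per group, two-sided, p = 0.2). Without SAP30-KO1 replicate 1, where no peak was called, the difference was −9.74. The locus 17442 bp upstream had a peak in all 6 libraries, at 60.1, 42.9 and 19.0 against 58.5, 71.8 and 27.9, with overlapping groups. The nearest EPHA2 locus outside its promoters, 8459 bp upstream, ranked at 0, 15.1 and 43.6 against 37.2, 48.0 and 66.3 (difference 31.0, exact permutation test, n = 3 per group, two-sided, p = 0.2). The short arm of chromosome 1 had a median difference of 5.28 points over 816 loci.

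In the region of RET (chr10:43572512-43625799, plus strand) the strongest locus lay in the last exon, exon 20, in the untranslated part. It ranked at 74.4, 63.0 and 41.6 in Parental and 67.6, 73.4 and 43.6 in SAP30-KO1, overlapping almost fully. FGFR1 (chr8:38257733-38326352, minus strand) had its strongest locus in intron 1, 9139 bp from the start, at 16.7, 21.7 and 32.2 against 66.6, 0 and 42.3. AXL (chr19:41725128-41767671, plus strand) had no locus with a peak in all 6 libraries, and its strongest outside promoters ranked at 27.1, 0 and 0 against 0, 47.9 and 0. The ERBB3 region (chr12:56470583-56497289 and 50 kb upstream) held 1 locus with a peak in all 6 libraries, 45 bp from the start of the ribosomal protein gene RPS26, at 63.2, 55.7 and 20.7 against 46.9, 42.0 and 61.1. ERBB2 (chr17:37844167-37886679, plus strand) and KIT (chr4:55523434-55606949, plus strand) had no locus outside their promoters.

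None of the 17 promoter loci of the members had group ranges apart, against 4.49% of all promoter loci that were lower and 5.46% that were higher in SAP30-KO1. Over the 35 intronic loci, 3 were lower and 0 higher in SAP30-KO1 with group ranges apart. Of all intronic loci 4.28% were lower and 5.96% higher by the same rule. Member loci were classed by their own gene and all loci by every gene, so that the bases are not identical. An FGFR1 locus 865 bp from the start of LETM2, for example, was intronic as a member locus only. A member locus was a promoter locus if the summit of any library lay in the window, whereas for all loci only the highest-ranking summit counted. Among the 11 intronic member loci with a peak in all 6 libraries, the mean rank was lower in SAP30-KO1 at 8 and higher at 3, with a median difference of −2.54 points, against −0.253 over 5420 intronic loci of the genome. The member value was −1.33 without Parental replicate 3, −1.46 without SAP30-KO1 replicate 1 and −4.31 when ranks were taken within the chromosome arm. EGFR gave 6 of the 11 loci, 5 of them lower. Including promoters, exons and upstream sites, 4 of 69 member loci were lower and 0 higher, against 4.26% and 5.86% of all loci. By limma on the ranks of 16314 loci with a peak in all 6 libraries, no locus passed an adjusted p of 0.05 in either direction, and 691 (4.24%) were lower and 906 (5.55%) higher at an unadjusted p under 0.05. None of the 20 member loci in that table did so, and the lowest adjusted p among them was 0.621.

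**Figure D4:**
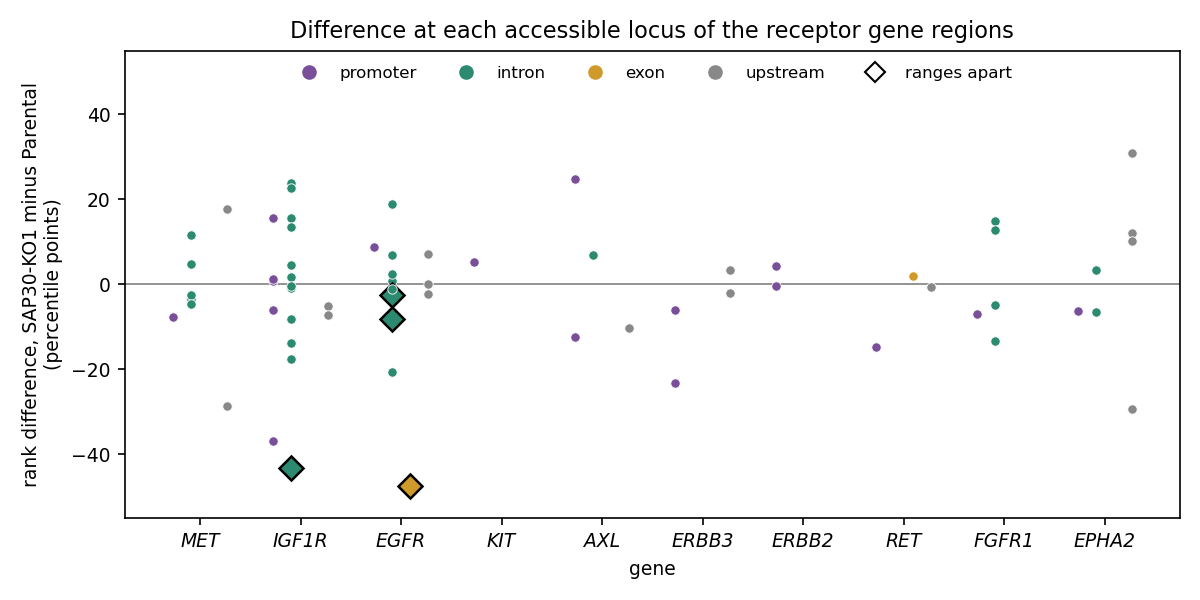
Difference in mean rank, SAP30-KO1 minus Parental in percentile points, at each of the 69 loci of the receptor gene regions, coloured by position in the gene. Diamonds mark the 4 loci with group ranges apart, all below 0, at −2.54 to −47.5 points.

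Motif content of the intronic member loci was set beside that of other intronic open sites. An AP-1 motif was present in 7 of the 11 intronic member loci found in every library (63.6%), against 52.9% of 5420 such loci of the genome, in windows of the same 299 bases. A TEAD motif (GGAATG) was present in 2 of 11 (18.2%) and in 28.4%, and a RUNX motif (TGTGGT) in 2 of 11 and in 31.8%. The printed EGFR and MET intron sequences had 1 AP-1 match each where they had any. The EGFR intron 8 locus, counted as exonic and with a peak in 3 libraries, held 2 ETS matches and no AP-1 match. At least 1 ETS match was found in 3.85% of all intronic loci, whatever their number of libraries. No share was taken over exonic loci. Of the 3 member promoter loci in all 6 libraries, 2 held a GC box (EGFR and MET), against 65.5% of 7168 promoter loci, and the third, at the internal IGF1R start, held an AP-1 match, found in 11.3%. No difference in motif content was tested.

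Other genes of the pathway were taken from lists. Of 48 further receptor tyrosine kinases, 28 had a promoter peak in any library, and 0 were lower and 2 higher in SAP30-KO1 with ranges apart, beside 4.57% lower and 6.01% higher over all genes with a promoter peak. These were ALK, at 0, 0 and 10.0 in Parental and 53.8, 36.8 and 52.8 in SAP30-KO1, and MERTK, the relative of AXL, at 0 in each Parental library and 19.8, 22.6 and 44.8 in SAP30-KO1. A promoter peak in all 6 libraries was found for 18.8% of them, against 30.0% of the members and 34.5% of all protein-coding genes. Of 30 ligand genes of the member receptors, 17 had a promoter peak and none had ranges apart in either direction.

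Of 18 adaptor and effector genes, 17 had a promoter peak in any library, and 1 was lower and 2 higher with ranges apart, beside the same 4.57% and 6.01% over all genes. GRB2, the adaptor that links receptors to RAS activation, ranked at 61.0, 62.6 and 52.5 in Parental and 89.3, 94.5 and 91.1 in SAP30-KO1. PIK3CB, a catalytic subunit of PI3-kinase, ranked at 65.3, 55.7 and 47.7 against 69.6, 87.0 and 79.9. PIK3CA, another catalytic subunit, was the lower one, at 90.2, 90.6 and 89.7 against 77.8, 86.6 and 75.0.

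Of 20 genes that dampen receptor signalling, 19 had a promoter peak, and 3 were lower and 1 higher with ranges apart, beside 4.57% and 6.01% over all genes. CBL, a ubiquitin ligase that sends activated receptors to degradation, ranked at 58.8, 45.9 and 51.1 in Parental and 0, 38.2 and 0.245 in SAP30-KO1. CBL lies on the long arm of chromosome 11, whose 454 loci in all 6 libraries had a median difference of −14.7 points, and the part of this shift in the CBL value was not tested. SPRY4, an inhibitor of the RAS pathway, ranked at 15.2, 3.57 and 27.6 in Parental and had no peak in SAP30-KO1. LRIG1, which promotes EGFR degradation, ranked at 98.4, 98.4 and 99.8 against 97.6, 97.5 and 96.5, and CBLB, a relative of CBL, at 96.8, 96.5 and 97.1 against 99.4, 99.9 and 99.8. The lowest adjusted p over all 12572 promoters was 0.945 (exact permutation test, Benjamini-Hochberg), which these genes shared.

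Likeness to a member was measured as the mean absolute difference in promoter rank over the 6 libraries, among 90 listed genes with a promoter peak. MET was most like SOS2 (4.31 points) and RYK (4.67), and IGF1R most like BTC (4.85) and MET (5.15). EGFR was most like PIK3CB (12.6) and FGF18 (13.4), and KIT most like NRG2 (7.24) and PTPN11 (14.8). Among the weak promoters, several of which share libraries without a peak with the genes named, ERBB3 was nearest to LMTK2 (4.29) and SRC (7.68), ERBB2 to PDGFRA (5.93) and MUSK (6.23), RET to SPRY1 (3.38), FGFR1 to LMTK3 and TYRO3 (both 2.13), EPHA2 to LMTK3 (0.461) and NRTN (1.89), and AXL to EPHA2 (15.5) and LMTK3 (15.9).

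The labelled cell type was checked on marker genes. Of 6 mesenchymal or basal markers (VIM, CD44, ZEB1, SPARC, CAV1, TGFBI) 5 had a promoter peak in every library, and ZEB1 had one in 3. Of 6 luminal markers none had a peak in every library, but 5 had one in at least 1 library. EPCAM and GATA3 had a peak in 5 libraries, FOXA1 in 2, ESR1 and PGR in 1 each, and CDH1 in none. Mean rank over the 6 libraries was 13.2 for ZEB1, 18.1 for GATA3 and 38.6 for EPCAM. The immune and endothelial markers PTPRC, CD3E and CDH5 had no promoter peak. The SAP30 promoter itself ranked at 84.7, 64.8 and 81.3 in Parental and 71.8, 49.5 and 89.5 in SAP30-KO1, with overlapping groups, and a promoter peak is no check of the knockout.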

How the data were processed

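The 6 ATAC-seq libraries (3 Parental, 3 SAP30-KO1) were used. Per the methods and the submitters' processing notes, the authors trimmed single-end reads (Trim Galore 0.4.5), aligned them to hg19 (Bowtie2 2.3.3.1), removed duplicates with Picard and called peaks in each library with MACS2 2.1.0. The deposited files hold 1 summit per line with the −log10 of the q-value, and every score lay above 1.30 (q of 0.05). Whether cut positions were shifted for the transposase, and whether mitochondrial or blacklisted reads were removed, is not given in the sources used here. A score grows with depth as well as with enrichment, so that ranks within each library were compared. Read depth is unknown and no counting interval can be given.

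Summits were placed on GENCODE release 44 (lifted to hg19) and the hg19 sequence. Differences were tested with an exact permutation test over the 20 assignments (two-sided) and adjusted by Benjamini-Hochberg over all features, and, as an alternative, with limma 3.58.1 (R 4.3.3) on ranks. Group ranges were called apart where every library of one group lay above every library of the other. Python 3.11.15, numpy 2.4.6 and scipy 1.17.1 were used, and the scripts were tested on simulated data. The members and the gene lists were chosen with earlier results of these data known. Named in the text were the 10 members, their promoter loci, the strongest other locus of each, loci with group ranges apart, listed genes with ranges apart (at most 2 in each direction per list), the 2 genes most like each member (1 of them is not reported here), and SAP30; further loci of EGFR, MET, IGF1R and EPHA2, and LRIG1, were added after their values were seen. Peaks of different libraries seldom shared an exact summit position (0.417% to 0.598% of the shorter list), so no library was a copy of another.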

Additional observations from a re-analysis of the deposited data

How the results depend on the processing

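The differences in summit number, in share of summits and in intronic summits kept their direction under every alternative run. Stricter q limits (0.01 and 0.0001), equal numbers of top-ranked summits, other promoter and summit windows and ranks within the chromosome arm left 3 intronic loci lower and 0 higher, whereas the exonic EGFR locus lost its separation at a q of 0.0001 (p = 0.4, exact permutation test). The log2 scale left 2, and limma at an adjusted p under 0.05 left 0. The replicate block gave 6 by a looser rule, since it asks only that the 3 same-numbered differences have the same sign. That count is not comparable with the counts of ranges apart. With equal numbers of top-ranked summits 1 promoter, IGF1R, was lower with ranges apart. On the log2 scale the median difference was −0.26 over promoters and −0.0835 over intronic loci. Using only the canonical start, a choice made after seeing the data, turned AXL to −12.4 and ERBB2 to −0.332. A 500 bp promoter window turned AXL to −12.4, a 2500 bp window turned ERBB2 to −1.52 and FGFR1 to 21.8, and equal numbers of summits turned ERBB2 to −1.33. The log2 scale turned KIT to −0.25 and the FGFR1 intron 1 locus to −0.19.

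Replicate numbers did not pair the libraries (correlations of same-numbered deviations −0.0179, −0.0127 and −0.00320), so the block of 3 paired differences, whose smallest p is 0.25, is only an alternative; it left the summit difference at −3.33 (exact sign-flip p = 0.5). Leaving out each library in turn, the intronic loci lower with ranges apart numbered 3 to 5 (5 without SAP30-KO1 replicate 3) and those higher 0 to 6 (6 without SAP30-KO1 replicate 1, 2 without SAP30-KO1 replicate 2, 1 without Parental replicate 1 or 3). Promoters lower numbered 0 to 2 (2 without Parental replicate 2 or 3, 1 without Parental replicate 1), and those higher 0 to 2 (2 without SAP30-KO1 replicate 1). With 2 libraries left in a group, ranges lie apart more often by construction. Differences that changed sign when a library was left out ranged from −9.43 to 24.8 (AXL promoter), −1.73 to 17.2 (EGFR promoter), −7.69 to 26.8 (KIT promoter), −9.03 to 16.0 (AXL intron 4 locus), −0.727 to 2.14 (strongest EGFR locus), −9.49 to 11.8 (locus upstream of ERBB3), −2.39 to 30.9 (FGFR1 locus) and −7.16 to 10.8 (RET exon 20 locus). The 4 separated loci kept their sign, which was fixed in advance, since leaving out a library cannot reverse ranges that lie apart. Their differences were −9.91 to −6.60, −3.22 to −1.40 and −69.0 to −32.5 in EGFR and −50.3 to −32.7 in IGF1R.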
